A study of Rattus norvegicus with 14 samples.

Results

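The respiratory chain and the ATP synthase are the machinery with which mitochondria turn the oxidation of nutrients into ATP. Genes were taken as members if their symbol in the probe annotation began with Nduf, Uqcr, Cox4, Cox5, Cox6, Cox7, Cox8 or Atp5, or was Sdha, Sdhb, Sdhc or Sdhd, and if their signal reached 100 on at least 2 of 14 arrays. Of 86 genes with such a symbol, 80 passed, out of 9840 genes with a symbol of their own that were tested. The 80 members were 34 subunits of complex I, 6 complex I assembly factors, 4 subunits of complex II, 7 of complex III, 13 genes counted with complex IV and 16 counted with the ATP synthase. A gene with several probe sets was represented by the 1 with the highest mean log2 signal.

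The arrays measured RNA from IEC-6 cells, a non-transformed line from rat small intestine that the labels call intestinal crypt cells. Monolayers were kept for 72 h with the solvent DMSO (4 arrays), with 100 µM indomethacin (2 arrays), with 100 µM NS-398 (4 arrays) or with 1 µM SC-560 (4 arrays), and no genetic change was stated for any group. Indomethacin blocks both cyclooxygenases, NS-398 prefers cyclooxygenase-2 and SC-560 prefers cyclooxygenase-1, and the submitters set the first 2 drugs, which slow migration of these cells, against SC-560, which does not. Arrays are named by their label digit, 1 or 2, without or with a suffix b (6 and 8 arrays), which no source used here explains, and both indomethacin arrays carry it. Material was pooled before hybridisation, per the submitters' design text, and p-values here rest on how arrays of a group vary, which can be technical variation alone.

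Array medians lay between 97.8 and 118, and the number of arrays limits the precision. The 3′ to 5′ signal ratio of beta-actin, a sign of RNA length after amplification, was 1.498 to 1.639 on the arrays without the suffix and 1.218 to 1.338 on those with it. Of 12 epithelial markers 8 reached the signal minimum, while Epcam, Krt18, Cldn3 and Cldn4 did not; 10 of 12 fibroblast and smooth muscle markers reached it. The summed signal of the epithelial markers was 25992 to 32144 under DMSO, 29365 to 29991 under indomethacin, 27107 to 30586 under NS-398 and 28277 to 33041 under SC-560. That of the fibroblast and smooth muscle markers was 88874 to 108291, 104434 to 108325, 82420.3 to 110342 and 92864 to 120486 in the same order. Both sums split by label set. The epithelial sum was 30157 to 33041 without the suffix and 25992 to 29991 in set b, and the other sum 82420.3 to 94229 and 104380 to 120486. The group ranges mix both sets, apart from indomethacin, which has set b only, so that they do not compare the drugs within a set. Single markers moved under these sums. Under NS-398 Dcn (0.80, adjusted p = 7.39e-05) and Des (0.61, 0.00829) rose and Tagln (-1.04, 0.00364), Col1a2 (-0.24, 0.00132) and the epithelial keratin Krt8 (-0.30, 0.000354) fell, in log2 units by limma. Under indomethacin Krt8 rose (0.23, adjusted p = 0.0414) and Tagln (-1.65, 0.00262) and Dcn (-0.59, 0.0188) fell by the same test, and under SC-560 none of these markers was called. Between the label sets all 8 epithelial markers were called by limma, 4 higher and 4 lower in set b, and 7 of the 10 others, 4 higher and 3 lower. Cdx2, the transcription factor of intestinal epithelium, read 55.0 to 124 on the arrays without the suffix and 3072 to 5314 on those with it. The part of these markers in the results was not tested. In such bulk samples, a change in the mix of cells and a change in RNA per cell cannot be told apart.

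Complex I (NADH dehydrogenase) and complex II (succinate dehydrogenase) pass electrons to ubiquinone, complex III passes them on to cytochrome c, and complex IV (cytochrome c oxidase) hands them to oxygen. Complexes I, III and IV pump protons out of the matrix, and the ATP synthase lets them flow back through a rotor that drives ATP formation. Most subunits are encoded in the nucleus, as are all members here, and several complex IV subunits exist as isoforms used in different tissues. In the small intestine the chain is known as a main source of ATP for the epithelium, and non-steroidal anti-inflammatory drugs are known to uncouple it at high concentrations.

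The members were among the brighter probe sets. Of the 80, 70 (87.5%) had a mean signal of at least 1000, against 29.7% of the 17515 probe sets tested. By complex, mean signals ranged from 437 to 7345 for complex I, from 166 to 1212 for the assembly factors, from 3158 to 4931 for complex II, from 3046 to 7574 for complex III, from 75.9 to 12466 for complex IV and from 1586 to 10448 for the ATP synthase. Each range spans probe sets of different sequence, so that levels of different genes are not ranked.

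The 6 genes below the minimum were isoforms of complex IV. Cox4i2, known from lung, peaked at 55.0, Cox6a2 and Cox8b, known from heart and skeletal muscle, at 16.1 and 7.89, and the testis isoforms Cox6b2 and Cox7b2 at 45.7 and 47.7. Ndufa4l2, known as a hypoxia-inducible relative of Ndufa4, was nearest to the minimum, with 119 on 1 array and 95.2 on the next. Just inside the minimum lay the pseudogene Cox6c-ps1, with 100 reached on 2 arrays (113 and 109.5), and the muscle isoform Cox7a1, with 100 reached on 12 arrays.

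The partners of these isoforms were measured on every array. Values are given in the order 1, 2, 1b and 2b. Cox4i1, the general isoform of subunit 4, had signals of 12452, 11752, 11998 and 12049.9 under DMSO, 12844 and 12956 under indomethacin (1b and 2b), 12221, 11672, 13394 and 13374 under NS-398 and 12283, 12234, 13019.6 and 12269.9 under SC-560. Both indomethacin arrays were above all 4 DMSO arrays, the NS-398 and SC-560 arrays overlapped with the DMSO arrays, and in set b all 6 drug arrays were above both DMSO arrays. Cox6a1, an accessory subunit, read 6537, 6407, 8289.7 and 8331 under DMSO, 9108 and 9197 under indomethacin, 6137, 5854, 8332 and 8351 under NS-398 and 7038, 6408, 9266 and 8737 under SC-560. For Cox6b1, which sits on the side of the enzyme that binds cytochrome c, the signals were 8230.1, 8262, 6550.4 and 6543, 7157 and 7155, 7314, 7832, 6977 and 7009 and 8868, 8556, 6697 and 6317 in the same order of groups. Both genes differed more between the label sets than between treatments.

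Cox8a, the general isoform of the smallest subunit, had 8097, 7884, 7396 and 6746 under DMSO, 7803 and 7648 under indomethacin, 7331, 7648, 7973 and 7897 under NS-398 and 7821, 7898, 7693 and 7479 under SC-560. Ndufa4, first counted with complex I and now known as a subunit of complex IV, had 12398, 12492, 12091 and 12435, 12453 and 11893, 12451, 11275, 11376 and 11177 and 12380.1, 13647, 12519 and 11886. Cox7a1 had 115, 103, 89.9 and 78.2, 140.2 and 192, 139, 126, 165 and 103 and 115, 142, 113 and 145. Its 4 DMSO arrays lay near the minimum, and both indomethacin arrays were higher. Of the c-subunit genes, which form the rotor ring of the ATP synthase, Atp5mc3 was measured on a probe set of its own, at 10453, 10677, 9393 and 9392 under DMSO, 9985 and 9982 under indomethacin, 10789, 11008, 9901 and 10057 under NS-398 and 10299.7, 11402, 10114 and 9484 under SC-560. The probe sets of Atp5mc1, Atp5mc2 and Cox7a2 carried several gene symbols and were not named; 7 probe sets of this kind held a matching symbol, and 1 of them was higher under NS-398 (log2 change 0.22, limma adjusted p = 0.0107).

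**Figure D1:**
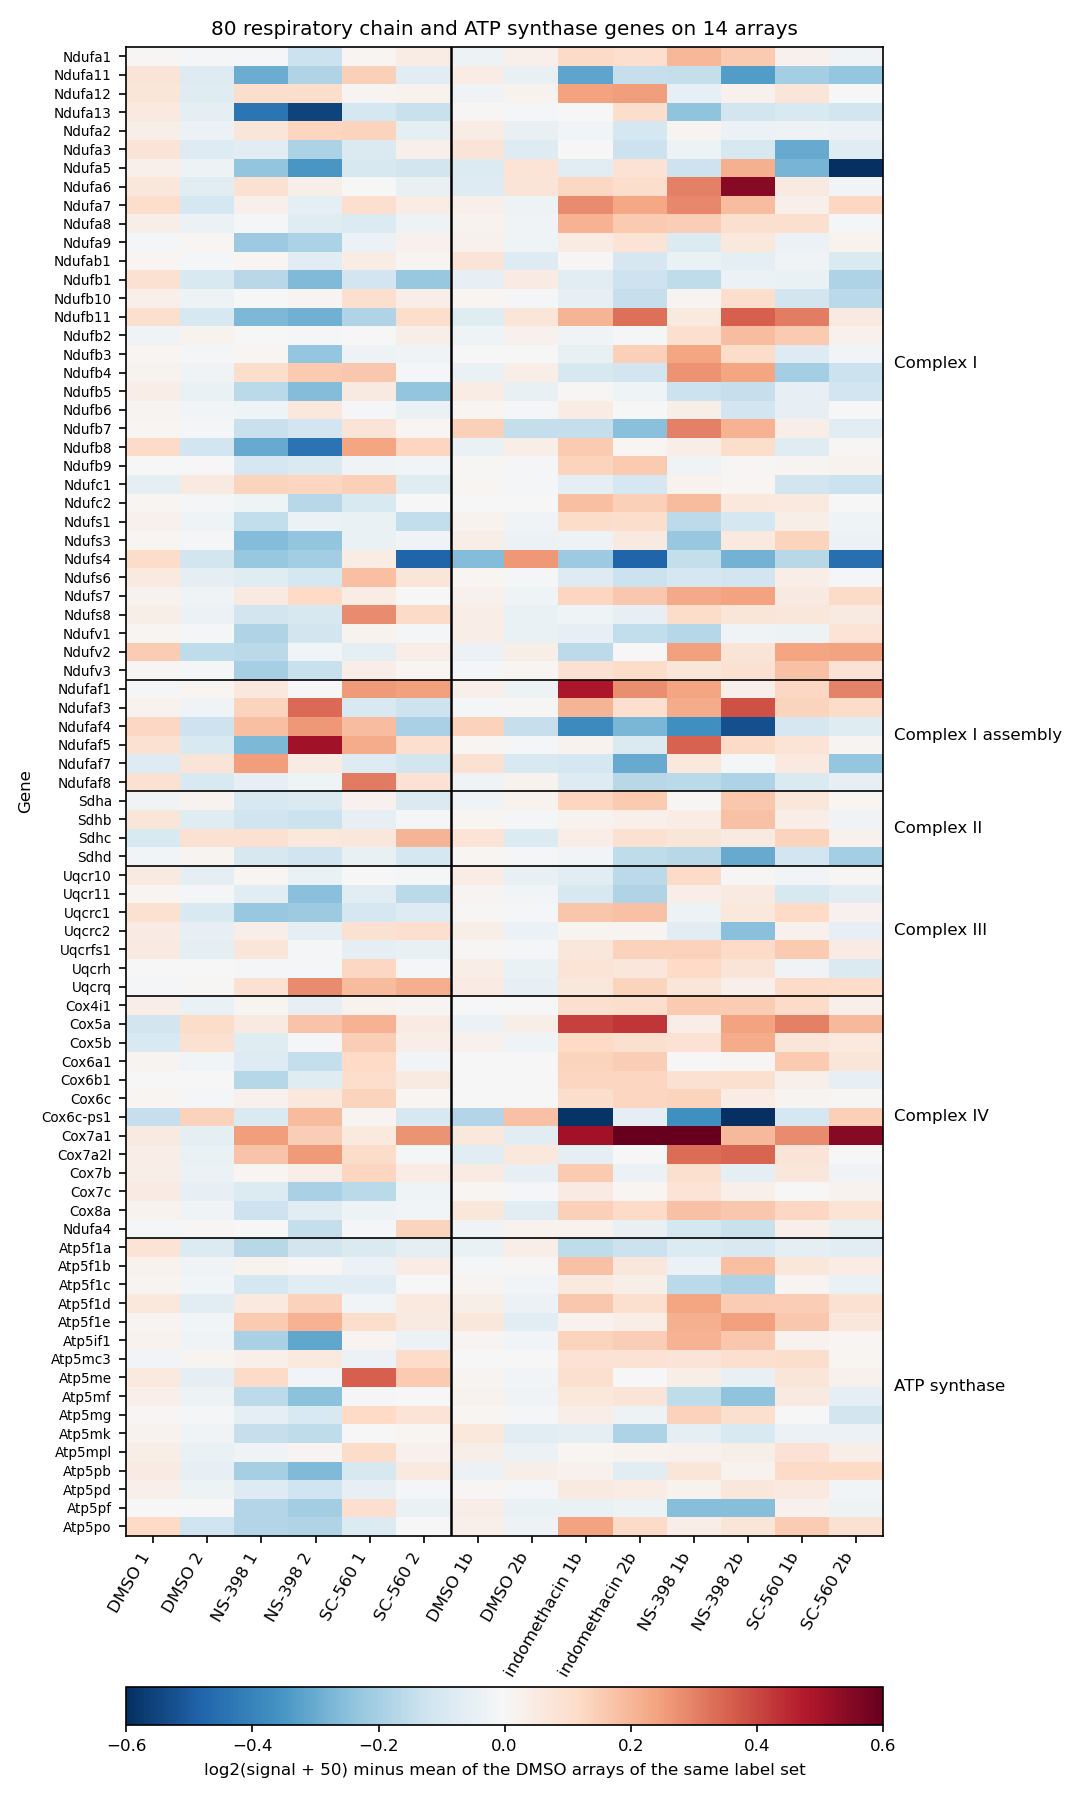
Each row is 1 of the 80 genes, grouped by complex, and each column 1 of the 14 arrays, with the 6 arrays without the suffix b on the left. Colour shows log2(signal + 50) minus the DMSO mean within the label set, from -0.6 to 0.6. Most cells are pale, and on the NS-398 arrays more complex I rows are blue in the set without the suffix than in set b.

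As a group, the members stayed close to their DMSO level under all 3 drugs. The median log2 change over the 80 members was 0.025 under indomethacin, -0.0050 under NS-398 and 0.015 under SC-560, and over all probe sets tested it was -0.0031, -0.0076 and 0.0064. The NS-398 value pools label sets with medians of opposite sign, -0.072 without the suffix and 0.056 in set b. Estimated changes were below 1.2-fold for 76, 75 and 77 of the 80 members, or 95%, 93.8% and 96.2%, against 80%, 81% and 94% of all probe sets and 87%, 86.2% and 99.2% of those with a mean signal of at least 1000. Beside these brighter probe sets, the members' share was higher under indomethacin and NS-398 and lower under SC-560. The 95% confidence interval of the change lay wholly within 1.5-fold for 75 members under indomethacin, 78 under NS-398 and 80 under SC-560. For probe sets with a mean signal of at least 1000, that share was 93%, 95% and 99.4%, against 93.8%, 97.5% and 100% of members. These shares are not at equal error. The members' median standard error was smaller, 0.070 against 0.087 under indomethacin and 0.055 against 0.068 under NS-398 and SC-560. The comparisons of the drugs with DMSO share the 4 DMSO arrays.

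Few members were called, that is, had a limma adjusted p under 0.05 over all probe sets. Under NS-398, 5 members rose and 6 fell, 11 of 80 or 13.8%, beside 13.5% of all probe sets (and 22.6% of those with a mean signal of at least 1000). Under indomethacin 1 member rose and none fell, beside 3.27% of all probe sets. For SC-560 limma called 0 members and 0% of all probe sets; 9 members (11.2%) had an unadjusted p under 0.05, beside 7.21% of all probe sets, and no other tool was run. No share of members called stood clearly above its background.

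By complex, the medians under NS-398 were -0.023 for complex I, 0.086 for its assembly factors, -0.0054 for complex II, 0.023 for complex III, 0.037 for complex IV and -0.030 for the ATP synthase. Under indomethacin they were -0.012, -0.045, 0.029, 0.062, 0.073 and 0.037 in the same order. Under SC-560 they ran from -0.0033 for complex I to 0.045 for complex IV. Called members of 1 complex went both ways. Of the 16 ATP synthase genes, 1 rose and 3 fell under NS-398 (25%), and of 34 complex I subunits, 2 rose and 2 fell (11.8%). Of all probe sets, 7.12% rose and 6.39% fell. Of those with a mean signal of at least 1000, 22.6% were called.

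**Figure D2:**
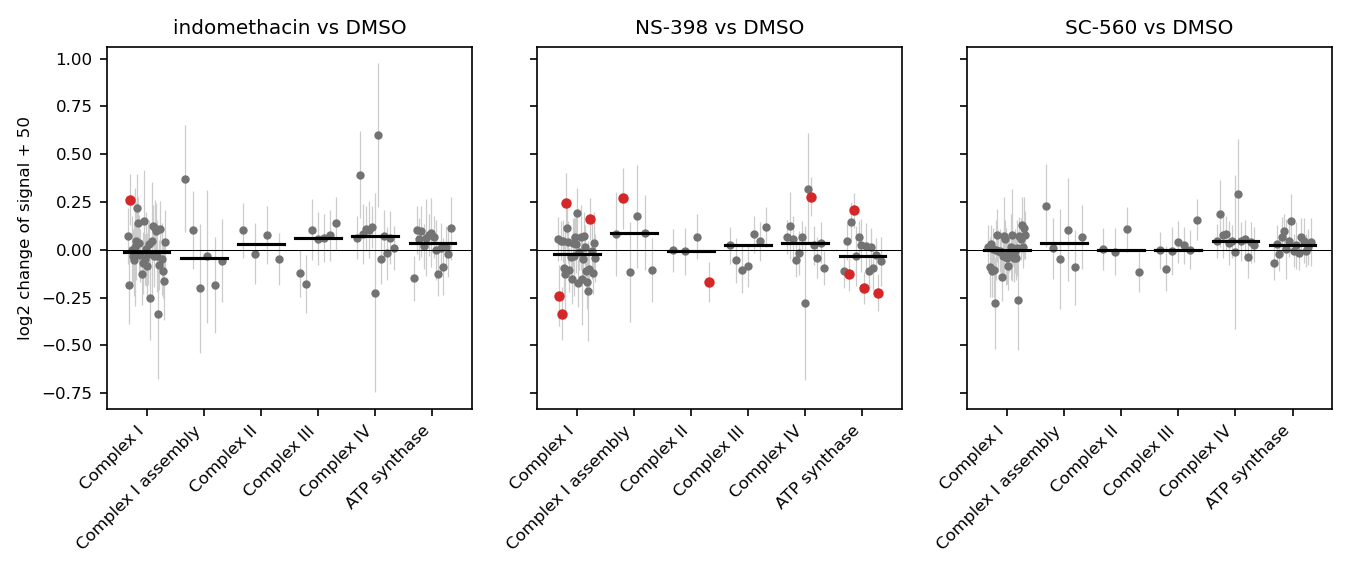
Log2 change of signal + 50 for each member against DMSO, by complex, for the 3 drugs, with 95% confidence intervals from limma as vertical lines, called members in red and the median of each complex as a black bar. The medians lie between -0.045 and 0.086, and the largest change, 0.60 for Cox7a1 under indomethacin, has the interval 0.22 to 0.97.

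In complex I, NS-398 lowered Ndufa13 and Ndufa11 and raised Ndufa6 and Ndufs7. Ndufa13 (also known as GRIM-19), an accessory subunit needed for assembly of the membrane arm, had signals of 5040.4, 4653, 4476 and 4421 under DMSO and 3561, 3284, 3759 and 4119.8 under NS-398. All 4 NS-398 arrays lay below all 4 DMSO arrays, the indomethacin arrays (4456 and 4782) were among the DMSO arrays, and the SC-560 arrays (4504, 4415, 4165 and 4122) reached down to the highest NS-398 array. The log2 change under NS-398 was -0.34 ± 0.065 (SE; 0.793-fold; limma adjusted p = 0.0028), the lowest in complex I. By set it was -0.50 in the arrays lacking the suffix and -0.17 in set b; set b alone gave no call (limma adjusted p = 0.0828), and the difference between the sets, 0.32, had a limma adjusted p of 0.0558.

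Ndufa11, an accessory subunit of the membrane arm, read 2369, 2128, 2847 and 2682 under DMSO, 1818, 1973, 2497 and 2178 under NS-398, 2206 and 2507 under indomethacin and 2486, 2139, 2389 and 2349 under SC-560. The NS-398 arrays were below the DMSO arrays of their own set in both sets, and the log2 change was -0.24 ± 0.075 (limma adjusted p = 0.0429). Ndufa6, which anchors a mitochondrial acyl carrier protein on the matrix arm, read 3226, 2932, 3040.4 and 3392 under DMSO, 3284, 3152, 3979 and 4705 under NS-398, 3499.9 and 3454 under indomethacin and 3075, 2978, 3340.3 and 3172 under SC-560. The groups overlapped in the set without the suffix (0.064) and were apart in set b (0.42); over both, the log2 change was 0.24 ± 0.075 (limma adjusted p = 0.0395), the highest in complex I. Ndufs7, the core subunit with the iron-sulfur cluster that reduces ubiquinone, read 1881, 1824, 1936 and 1873 under DMSO, 1927, 2016, 2242 and 2263 under NS-398, 2089 and 2136 under indomethacin and 1914, 1857, 1977 and 2068 under SC-560. It was higher within each set under NS-398, by 0.16 ± 0.052 (limma adjusted p = 0.0489), or by 0.087 (no suffix) and 0.24 (suffix b).

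Of the assembly factors, which help build complex I and are not part of it, Ndufaf3 rose under NS-398. Its signals were 549.9, 533, 736 and 742 under DMSO, 599, 698, 869.8 and 978 under NS-398, 858 and 797 under indomethacin and 505, 493, 815 and 803 under SC-560. The NS-398 arrays were above DMSO in each set, and the log2 change was 0.27 ± 0.075 (limma adjusted p = 0.0246). Treating arrays that share group and set as a random block ended the call (0.0536). Its known partner Ndufaf4 was the lowest of the 6 under NS-398 (-0.11 ± 0.12, limma adjusted p = 0.604), with opposite signs in the label sets.

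In complex II, Sdhd, a membrane anchor of succinate dehydrogenase, fell under NS-398. Signals were 5749.6, 5896, 4862 and 4773 under DMSO, 5450.2, 5359.9, 4293 and 3892 under NS-398, 4764 and 4327 under indomethacin and 5645, 5409, 4441 and 4172 under SC-560. NS-398 arrays were below DMSO within each set, with a log2 change of -0.17 ± 0.05 (limma adjusted p = 0.0312). By set it was -0.11 (no suffix) and -0.23 (suffix b). The call was lost once arrays sharing both group and set were treated as a random block (0.0656). A second probe set of Sdhd gave -0.078 (limma adjusted p = 0.326), which did not pass the test. The highest of complex II under NS-398 was Sdhc, the other membrane anchor, at 0.069 ± 0.055 (limma adjusted p = 0.455).

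No complex III gene was called under any drug on its representative probe set. The extremes under NS-398 were the core protein Uqcrc1 at -0.10 ± 0.059 and Uqcrq, a small subunit next to the ubiquinone site, at 0.12 ± 0.051. Uqcrc2, the other core protein, had 2 tested probe sets that disagreed. Its representative set changed by 0.058, -0.084 and 0.041 under indomethacin, NS-398 and SC-560. The second set, singled out after its values were seen, had signals of 3310.5, 2191, 2802 and 2428 under DMSO, 1441 and 1348 under indomethacin, 1494, 1387, 1883 and 2054 under NS-398 and 1372, 1838, 1713 and 1800.0 under SC-560. On this probe set all 10 drug arrays were below all 4 DMSO arrays. The log2 changes were -0.99 under indomethacin (limma adjusted p = 0.00171), -0.64 under NS-398 (0.00205) and -0.65 under SC-560 (0.216). Which transcript each probe set detects was not tested.

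Among the genes counted with complex IV, Cox7a2l rose under NS-398. Its product is a factor that joins complexes III and IV into supercomplexes and is not a subunit of complex IV itself. It had signals of 6925, 6561, 6488 and 7081 under DMSO, 7592, 8051, 8577 and 8648 under NS-398, 6533 and 6758 under indomethacin and 7277, 6702, 7159 and 6785 under SC-560. All 4 NS-398 arrays were above the 10 others, and the log2 change of 0.28 ± 0.049 (1.21-fold) had the smallest adjusted p of all members (limma, 0.00124). By set it was 0.21 (no suffix) and 0.34 (suffix b). The highest and lowest changes in complex IV belonged to the dim Cox7a1 (0.32 ± 0.14, limma adjusted p = 0.139) and the pseudogene Cox6c-ps1 (-0.28 ± 0.19, limma adjusted p = 0.375), neither of which passed the test.

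In the ATP synthase, NS-398 lowered Atp5pf, Atp5mf and Atp5f1c and raised Atp5f1e. Atp5pf, coupling factor 6 of the stator stalk, read 4807, 4827, 5393 and 5085 under DMSO, 4260.4, 4164, 4377 and 4380.0 under NS-398, 5091 and 5122 under indomethacin and 5177, 4687, 5341 and 5127 under SC-560. All 4 NS-398 arrays were below the 10 others, and the log2 change was -0.22 ± 0.045 (0.856-fold; limma adjusted p = 0.00333). Atp5mf, subunit f of the membrane part, read 9561, 9155, 10188 and 9887 under DMSO, 8376, 7870.1, 9032 and 8487 under NS-398, 10472 and 10588 under indomethacin and 9287, 9342, 10422 and 9628 under SC-560. Here too the NS-398 arrays were the 4 lowest, with a log2 change of -0.20 ± 0.04 (limma adjusted p = 0.00355).

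Atp5f1c, the gamma subunit that forms the rotating shaft, read 7557, 7408, 6115 and 5976 under DMSO, 6942, 7163, 5403 and 5318 under NS-398, 6289 and 6197 under indomethacin and 7126, 7462, 6113 and 5883 under SC-560. It was lower within each set, by -0.13 ± 0.041 (limma adjusted p = 0.0474), or by -0.085 (no suffix) and -0.17 (suffix b). Atp5f1e, the epsilon subunit at the foot of the same shaft, read 5172, 5063, 6902 and 6256 under DMSO, 5719, 5929.8, 7626 and 7806 under NS-398, 6669 and 6759.9 under indomethacin and 5513, 5308, 7352 and 6891 under SC-560. It was higher within each set, by 0.21 ± 0.043 (limma adjusted p = 0.00445). The 2 subunits of 1 shaft were thus measured in opposite directions.

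**Figure D3:**
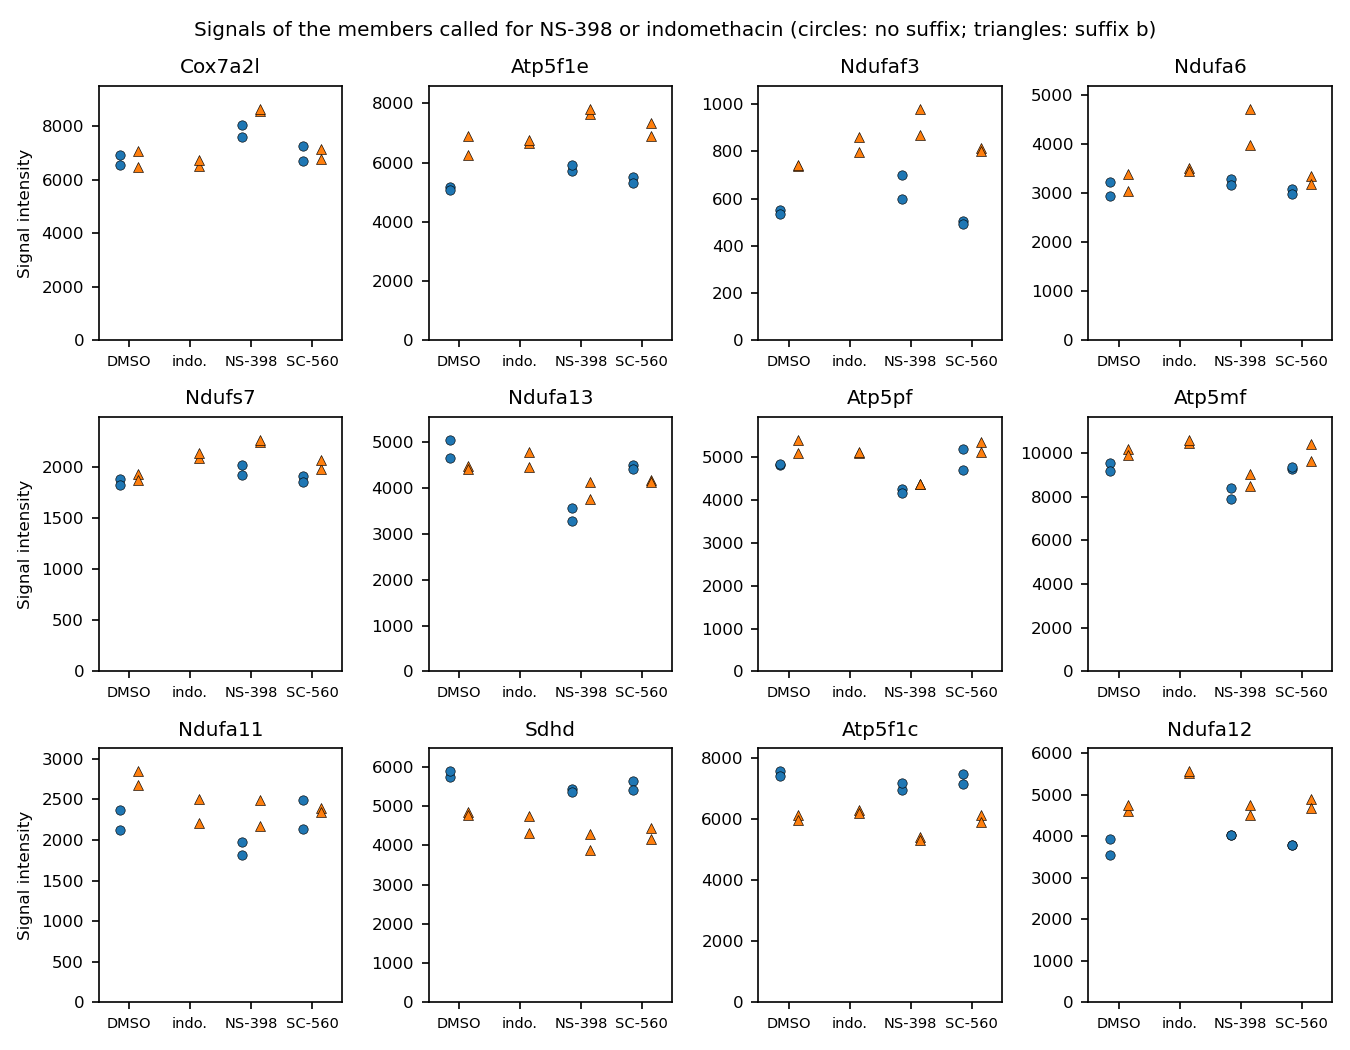
Signal intensity on each array, from 0, for the 11 members called under NS-398 and for Ndufa12, called under indomethacin (indo.). Circles are arrays without the suffix b and triangles arrays with it; for Atp5pf and Atp5mf the 4 NS-398 points are the lowest, and for Cox7a2l the highest.

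Across both label sets, 18 of 80 members (22.5%) had NS-398 arrays apart from the DMSO arrays of their set in 1 direction, beside 21.9% of all probe sets. Cox7a2l, Atp5f1e, Atp5mf, Atp5pf and Ndufa13 were called whichever array was left out. Without 1 array the number called under NS-398 fell as low as 5 (without DMSO 1b or DMSO 2b), and it was 6 without NS-398 2b and 7 without DMSO 2 or NS-398 2. Ndufaf3 lost its call without DMSO 1b, DMSO 2b, NS-398 2 or NS-398 2b (adjusted p 0.0684 to 0.0795), and Sdhd without these or DMSO 2 (0.0510 to 0.0987). Ndufa6 lost it without DMSO 2, DMSO 1b, DMSO 2b, NS-398 1b, NS-398 2b, SC-560 1b or either indomethacin array (0.0506 to 0.141), and Ndufa11 without DMSO 1, DMSO 1b, DMSO 2b, NS-398 1, NS-398 2, NS-398 2b, SC-560 2 or SC-560 1b (0.0501 to 0.129). Atp5f1c kept its call only without NS-398 2 or SC-560 1 and otherwise lost it (0.0519 to 0.124), and Ndufs7 kept it only without NS-398 1 (0.0514 to 0.140). With the random block, which lets arrays sharing group and set vary together, these 6 genes lost their calls (0.0536 to 0.0940) and the 5 named first kept theirs (0.00361 to 0.0124). Without a term for the label set no member was called under NS-398.

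Promoters were read from RefSeq windows of assembly GRCr8, from 250 bases before to 50 after the start of the gene, which were found for 73 of the 80 members. Exact letters of 5 motifs were searched on both strands. GCGCATGC, the core of the site of NRF1, a known regulator of nuclear respiratory genes, was in 12.3% of members, 5.43% of the 8266 tested genes with a window and 2.66% of all 27457 windows. CCGGAAG, bound by ETS factors such as GABPA (NRF2), was in 30.1%, 19.4% and 9.22%, and AAGATGGC, the letters of YY1 sites, in 21.9%, 6.09% and 3.44%. CCAAT (NF-Y) was in 32.9%, 38.4% and 37.7%, and GGGCGG (Sp1) in 42.5%, 64.9% and 34.9%. The median GC content was 56% for members and 61.3% for tested genes. Such matches are letters only, and binding was not measured.

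Promoters of 4 members called under NS-398 are shown, chosen after their matches were seen. In the 250 bases before the start, the fallen genes Ndufa13, Ndufa11, Atp5pf and Sdhd carry NRF1 or ETS letters. Of the risen genes Ndufa6 alone does. YY1 letters are there in Atp5pf alone of the called members, and it fell. In these bases Atp5pf and Ndufa6 hold 2 of the 3 motifs each, and Ndufa13 and Ndufa11 hold several matches to 1. Sdhd, with 1 ETS match, is not printed. The sequences give these 250 bases, read 5′ to 3′ on the strand of the gene. Matches to NRF1, ETS or YY1 letters on either strand are in capitals. Ndufa13 (chr16:19560276-19560525, plus strand) and Ndufa11 (chr9:1637364-1637613, plus strand) fell, as did Atp5pf (chr11:37375102-37375351, minus strand), while Ndufa6 (chr7:115750318-115750567, minus strand) rose.
Ndufa13: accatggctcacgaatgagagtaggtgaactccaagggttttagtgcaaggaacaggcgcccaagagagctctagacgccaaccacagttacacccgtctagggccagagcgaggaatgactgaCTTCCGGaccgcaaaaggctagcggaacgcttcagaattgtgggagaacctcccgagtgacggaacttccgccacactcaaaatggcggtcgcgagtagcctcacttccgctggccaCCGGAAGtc
Ndufa11: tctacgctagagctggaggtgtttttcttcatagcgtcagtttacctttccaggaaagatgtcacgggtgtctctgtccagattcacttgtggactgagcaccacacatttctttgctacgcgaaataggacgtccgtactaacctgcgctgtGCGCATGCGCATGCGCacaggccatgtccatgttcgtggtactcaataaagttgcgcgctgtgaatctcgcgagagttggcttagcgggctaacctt
Atp5pf: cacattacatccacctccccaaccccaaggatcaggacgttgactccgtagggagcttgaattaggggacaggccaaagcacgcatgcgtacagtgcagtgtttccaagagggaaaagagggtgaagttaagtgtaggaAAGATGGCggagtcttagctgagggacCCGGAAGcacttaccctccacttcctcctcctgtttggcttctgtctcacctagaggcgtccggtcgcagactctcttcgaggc
Ndufa6: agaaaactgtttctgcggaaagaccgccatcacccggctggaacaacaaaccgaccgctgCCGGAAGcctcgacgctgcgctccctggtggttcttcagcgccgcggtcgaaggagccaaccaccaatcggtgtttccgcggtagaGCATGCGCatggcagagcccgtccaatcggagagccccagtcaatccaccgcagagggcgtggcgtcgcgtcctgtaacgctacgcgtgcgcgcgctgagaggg
Ndufa13 has ETS letters on both strands, Ndufa11 a run of overlapping NRF1 letters, Atp5pf a YY1 and an ETS match, and Ndufa6 an ETS and an NRF1 match. No match to 1 motif overlapped a match to another in these windows. Atp5mf, Cox7a2l and Atp5f1e, which were called whichever array was left out, held no NRF1, ETS or YY1 letters in the bases before the start. Nor did Ndufaf3, Ndufs7 and Atp5f1c. The 50 bases after the start, which the shares above include, are not printed or described by gene. YY1 letters were in 16 of 73 members over the whole window, but before the start only in Atp5me and Atp5pf. Statements on YY1 by gene thus leave out most of its matches.

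**Figure D4:**
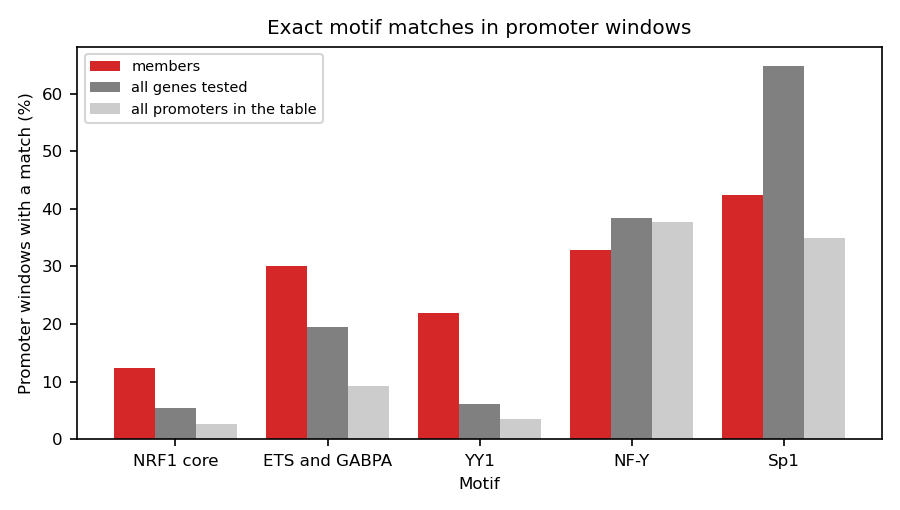
Share of promoter windows with at least 1 exact match to each of 5 motifs, for 73 members (red), 8266 genes tested (dark grey) and 27457 windows of the RefSeq table (light grey). The members' bars for NRF1, ETS and YY1 stand at 12.3%, 30.1% and 21.9%, beside 5.43%, 19.4% and 6.09% of tested genes, and no test was made of these shares.

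Under indomethacin, with 2 arrays, Ndufa12 was the 1 member called. It is an accessory subunit of the matrix arm of complex I, and read 5519.9 and 5565 under indomethacin, 3931, 3558, 4594 and 4741 under DMSO, 4026, 4032, 4512 and 4747 under NS-398 and 3789, 3795, 4903 and 4674 under SC-560. Both indomethacin arrays were above the 12 others, and the log2 change was 0.26 ± 0.062 (1.2-fold; limma adjusted p = 0.0282). The call was lost with the random block (limma adjusted p = 0.0675) and without DMSO 1b or either indomethacin array (0.0895 to 0.201), and 2 members were called without DMSO 2, NS-398 1b, NS-398 2b or SC-560 2.

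The other extremes under indomethacin did not pass the test. Cox7a1 had the largest estimate (0.60 ± 0.18, limma adjusted p = 0.0804), followed by Cox5a, a nuclear-encoded subunit of complex IV (0.39 ± 0.11, 0.0545), and by the assembly factor Ndufaf1 (0.37 ± 0.13, 0.15). Cox5a read 484 and 491 under indomethacin and 382, 452, 343 and 362 under DMSO, so that both drug arrays were above all 4 controls. The lowest of complex I, complex IV and the assembly factors were Ndufs4 (-0.34 ± 0.16, 0.301), Cox6c-ps1 (-0.22 ± 0.25, 0.714) and Ndufaf4 (-0.20 ± 0.16, 0.575), in that order. In complex II the changes ran from Sdhd (-0.049) to the flavoprotein Sdha (0.10), in complex III from Uqcr11 (-0.18) to Uqcrq (0.14) and in the ATP synthase from the alpha subunit of the catalytic head, Atp5f1a, (-0.15) to the stalk subunit Atp5po (0.11).

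SC-560, at a dose of 1 µM, left every member within 1.5-fold by its 95% interval on its representative probe set. The second probe set of Uqcrc2 changed by -0.65 (limma adjusted p = 0.216), which was the smallest adjusted p of all probe sets under this drug. In complex I the changes ran from Ndufa5 (-0.28 ± 0.11, limma adjusted p = 0.611) to the core subunit Ndufs8 (0.13 ± 0.069, 0.74), and among the assembly factors from Ndufaf7 (-0.09) to Ndufaf1 (0.23). Complex II ran from Sdhd (-0.12) to Sdhc (0.11) and complex III from Uqcr11 (-0.10) to Uqcrq (0.16). The adjusted p of Uqcrq, 0.49 in limma, was the smallest of the members on their representative probe sets. Complex IV ran from Cox7c (-0.04) to Cox7a1 (0.29), and the ATP synthase from Atp5f1a (-0.069) to the membrane subunit Atp5me (0.15).

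Drug pairs were tested in the same fit, and all 3 pairs reuse the arrays above. Between NS-398 and SC-560, whose doses differ, 4 members were higher and 5 lower under NS-398 (11.2%, beside 12.7% of all probe sets). Higher were Cox7a2l (0.23 ± 0.049, limma adjusted p = 0.00478), Ndufb4 (0.24, 0.0201), Ndufaf3 (0.26, 0.0296) and Ndufa6 (0.25, 0.04). Lower were Atp5pf (-0.24 ± 0.045, 0.00225), Atp5mf (-0.20, 0.00446), Ndufs6 (-0.17, 0.0259), Ndufa13 (-0.23, 0.0316) and Cox6a1 (-0.14, 0.048). Of these, Cox7a2l, Atp5pf and Atp5mf were called whichever array was left out, and these and Ndufb4 with the random block. By set (no suffix, then suffix b) Ndufb4 was 0.054 and 0.42, Ndufa6 0.087 and 0.41, Ndufaf3 0.34 and 0.18, Ndufs6 -0.22 and -0.13, Cox7a2l 0.16 and 0.30 and Ndufa13 -0.38 and -0.073. The number called was 4 without SC-560 1b and 5 without NS-398 2 or SC-560 1. Ndufb4 lost its call without NS-398 1b, NS-398 2b, SC-560 1b or SC-560 2b (0.0570 to 0.0806), Ndufs6 without NS-398 1, NS-398 2, SC-560 1 or SC-560 1b (0.0506 to 0.0822), and Ndufaf3 without NS-398 2, NS-398 2b, SC-560 1 or SC-560 2 (0.0742 to 0.0943). Ndufa13 lost it without NS-398 1, NS-398 2, SC-560 1, SC-560 2 or SC-560 1b (0.0522 to 0.106). Cox6a1 kept its call only without SC-560 2 (otherwise 0.0527 to 0.138), and Ndufa6 only without DMSO 1, DMSO 1b, NS-398 1, NS-398 2 or SC-560 1 (otherwise 0.0503 to 0.126).

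Between indomethacin and NS-398, both at 100 µM, 4 members were called (5%, beside 5.45% of all probe sets). Atp5mf (0.27 ± 0.052, limma adjusted p = 0.0062), Ndufa13 (0.33 ± 0.085, 0.0286) and Atp5pf (0.20 ± 0.058, 0.0488) were higher under indomethacin, and Cox7a2l was lower (-0.33 ± 0.063, 0.00559). With the random block Atp5mf and Cox7a2l kept their calls and Ndufa13 (0.0553) and Atp5pf (0.108) lost theirs. Without indomethacin 1b none of them was called, and without indomethacin 2b Cox7a2l alone was. Atp5mf then had an adjusted p of 0.0612 to 0.0825, Ndufa13 of 0.104 to 0.242 and Cox7a2l, without indomethacin 1b, of 0.0877. Atp5pf kept its call only without DMSO 1b, SC-560 1 or SC-560 2 (otherwise 0.0534 to 0.238). Between indomethacin and SC-560 no member was called, beside 2.98% of all probe sets; 6 members (7.5%) had an unadjusted p under 0.05, and 1 member was called without DMSO 1 or without DMSO 2.

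The label sets differed far more than any drug from DMSO. Between sets, 49 of 80 members (61.3%) were called, 26 higher and 23 lower in set b, beside 59% of all probe sets. Ndufb7, an accessory subunit of the complex I membrane arm, read 7630.4, 7495, 3429.5 and 2809 under DMSO, and differed by -1.16 ± 0.066 (limma adjusted p = 9.16e-11). Uqcrq went the other way, with 3039, 3072, 6206 and 5796 under DMSO and a difference of 0.89 ± 0.041 (limma adjusted p = 6.58e-12). For these 2 genes every array of 1 set lay apart from every array of the other.

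Under NS-398 the members' median differed in sign between the sets. Without the suffix the median log2 change of the 80 members was -0.072, with 27 (33.8%) above 0, and in set b it was 0.056, with 52 (65%) above 0. All probe sets had medians of -0.0039 and -0.0090 in these sets, with 49.3% and 48.4% above 0, and those with a mean signal of at least 1000 had -0.0099 and -0.013. Complex I had medians of -0.094 and 0.030, complex II -0.099 and 0.075, complex III -0.011 and 0.050, complex IV -0.018 and 0.094 and the ATP synthase -0.092 and 0.046, while the assembly factors had 0.13 and 0.082. Under SC-560 the members' medians were 0.013 and 0.018. The medians of single arrays were -0.058 and -0.063 for NS-398 1 and 2, 0.042 and 0.062 for NS-398 1b and 2b, and between -0.023 and 0.023 for the DMSO arrays. The DMSO values are measured from the mean of the same DMSO arrays. They therefore mirror each other around 0 and give no spread to set the NS-398 values against. Between arrays of one group and set, the members' median log2 signal had an SD of 0.037. With quantile normalization the members' medians were -0.078 and 0.036, and with centring on the array median -0.081 and 0.058. Leaving out any 1 DMSO or NS-398 array kept the medians between -0.084 and -0.055 without the suffix and between 0.042 and 0.070 in set b. The beta-actin ratio and marker genes, Cdx2 among them, go with the label set on these arrays, and the part of any of them in this difference was not tested.

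Tested gene by gene, few of these differences passed. The interaction of NS-398 with the set was above 0 for 59 of 80 members (73.8%) and for 49.5% of all probe sets, and 24 members (30%) had an unadjusted p under 0.05, beside 20.9%. Called were 2 members (2.5%), beside 5.47% of all probe sets. Atp5if1, the inhibitor that stops the ATP synthase from running backwards and not a structural subunit, read 4614, 4482, 3267 and 3192 under DMSO, 3969.8, 3652, 3738 and 3616 under NS-398, 3551 and 3579.8 under indomethacin and 4602, 4436, 3275 and 3261 under SC-560. It was lower under NS-398 without the suffix (-0.25) and higher in set b (0.18), with an interaction of 0.44 ± 0.086 (limma adjusted p = 0.00804; 0.0532 without NS-398 2). Ndufaf4 went the other way (0.22 and -0.45), reading 1085, 904, 1699 and 1397 under DMSO, 1129.9, 1196, 1183 and 1052 under NS-398, 1172 and 1266 under indomethacin and 1133, 860.5, 1432 and 1462 under SC-560. Its interaction was -0.67 ± 0.18 (limma adjusted p = 0.0389), and the call was lost without DMSO 2, DMSO 1b, NS-398 1, NS-398 2, NS-398 2b, SC-560 1b or SC-560 2b (0.0561 to 0.159). For Atp5if1 a second, dim probe set (mean signal 150, against 3803) was tested too. Over both sets it changed by 0.16 under NS-398, against -0.034 on the representative probe set. Its difference between the label sets was 0.037, against -0.33, and its interaction is not given here. For 2 members called, a single array moved the number to 0 (without NS-398 2), to 1 (without DMSO 2, NS-398 2b, SC-560 1b or SC-560 2b) or to 5 (without NS-398 1b). SC-560 had no member with a called interaction, beside 0.0171% of all probe sets, and 4 members (5%) at an unadjusted p under 0.05.

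**Figure D5:**
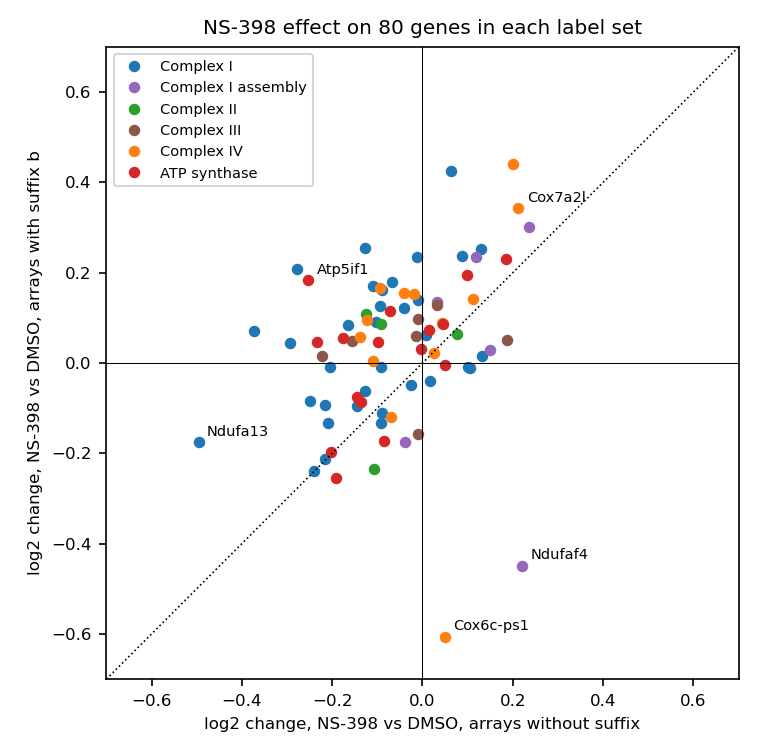
Log2 change under NS-398 against DMSO for each of the 80 members, in the arrays without the suffix b (horizontal) and with it (vertical), coloured by complex; the dotted line marks equal change. More points lie above the line than below it (59 of 80 have a positive interaction), and Atp5if1 and Ndufaf4 are the 2 called for a difference between the sets.

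The other genes of the pathway were described from lists chosen with earlier results of these data known. Of 34 measured chain genes outside the symbol rule and assembly factors, 3 rose and 1 fell under NS-398, or 11.8%, beside 13.5% of all probe sets. Sdhaf3, an assembly factor of complex II (0.36 ± 0.073, adjusted p = 0.00334), Timmdc1, which helps assemble complex I (0.26 ± 0.073, adjusted p = 0.0231), and Coa3, which helps translate and assemble complex IV (0.23 ± 0.066, adjusted p = 0.0299), rose in limma. Cox15, an enzyme that makes the haem a of complex IV, fell (-0.41 ± 0.087, adjusted p = 0.00466). Of 14 genes of the citric acid cycle and pyruvate dehydrogenase none was called, and the median was -0.066; the changes ran from -0.20 to 0.10.

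Of 14 regulators of mitochondrial biogenesis, 2 fell under NS-398, or 14.3%, which is near the 13.5% of all probe sets. Tfam, which packages and transcribes mitochondrial DNA, changed by -0.23 ± 0.061, adjusted p = 0.0207 in limma, and Gabpa, the DNA-binding subunit of the factor that reads the ETS letters above, by -0.24 ± 0.075, adjusted p = 0.0397. Yy1 and Nrf1 changed by -0.0094 and 0.055 and did not pass. Of 7 carriers and pores, all with a mean signal above 1000, 3 were called (42.9%). The share called was 13.5% for all probe sets and 22.6% for those with a mean signal of at least 1000. The phosphate carrier Slc25a3 rose (0.17 ± 0.046, adjusted p = 0.0198), and the uncoupling protein Ucp2 (-0.31 ± 0.081, adjusted p = 0.017) and the outer membrane pore Vdac3 (-0.14 ± 0.041, adjusted p = 0.0346) fell, by the same limma test. Of 73 mitochondrial ribosome genes, 2 rose and 6 fell under NS-398 (11%, beside 13.5%), from Mrpl32 (-0.39 ± 0.069, adjusted p = 0.00127) to Mrpl57 (0.45 ± 0.13, adjusted p = 0.0241) in limma, with a median of -0.030. Indomethacin and SC-560 had no call in these 5 lists, beside 3.27% and 0% of all probe sets. For SC-560 no list could have held a call. No gene of the mitochondrial genome was found in the annotation used here.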

How the data were processed

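Total RNA was hybridised to 14 arrays, after 2 rounds of amplification per the labels' protocols. The submitters' design text gives several arrays per biological sample, so that arrays of a group may be technical replicates. The authors deposited signal intensities on a linear scale, scaled per the labels to a target signal of 500 over all probe sets; the summarising software and its version are not given in the sources used here. Control probe sets were left out, and 17515 probe sets with a signal of at least 100 on 2 arrays were tested. Intensities were used as log2(signal + 50) in limma 3.58.1 under R 4.3.3 (4 groups, label set as a term, empirical Bayes moderation, intensity trend on). Benjamini-Hochberg adjustment ran over all probe sets, with calls below 0.05; errors on log2 changes are standard errors. Set interactions were fitted without indomethacin, and the fit was checked on simulated data. Members and lists were chosen with earlier results of these data known. Named are members called against DMSO or in an interaction, isoform partners, and the highest and lowest of each complex under each drug. Pseudocount, filter, scaling, set term, blocks, trend, choice of probe set, symbols and arrays were varied.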

Additional observations from a re-analysis of the deposited data

Results flagged for a closer look

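Of the members named with their values on every array, 21 were tested for a lone array in the groups of 4, 63 groups in all. Chance flags about 1 in 20 groups where all 4 arrays are alike. These groups mix both label sets, so that this rate may not hold. The flags, on Cox4i1 and Ndufa4, are no more than that rate would give. Cox4i1 read 13019.6 on SC-560 1b, against 12233.7 to 12283.4 on the other SC-560 arrays. Ndufa4 read 12451.3 on NS-398 1, against 11177.1 to 11375.7 on the other NS-398 arrays. On the representative probe sets, the effect of NS-398 differed between the label sets for Atp5if1 (0.44 higher on the log2 scale in set b than in the other set, limma adjusted p = 0.00804) and for Ndufaf4 (-0.67, limma adjusted p = 0.0389).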

How the results depend on the processing

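The numbers of members called, 11 for NS-398, 1 for indomethacin, 9 between NS-398 and SC-560, 4 between indomethacin and NS-398, 0 between indomethacin and SC-560 and 2 for the NS-398 interaction, moved with the settings, and the cause was not tested. The share of all probe sets called under each changed setting is not given here. The counts below thus do not tell a change among members from a change over all probe sets. Without a label set term the first 4 were all 0. Without the intensity trend NS-398 had 6, indomethacin 0, the drug pairs 4 and 1, and the interaction 0. Without the filter NS-398 had 6, indomethacin against NS-398 2 and the interaction 1. Under quantile normalization indomethacin had 2 and indomethacin against NS-398 7; median centring gave the same numbers and 1 between indomethacin and SC-560, as did a pseudocount of 200. With the replicate block NS-398 had 7 and indomethacin 0; it ended the calls of Ndufa12, Ndufa6, Ndufs7, Ndufa11 and Atp5f1c against DMSO and 4 calls between drugs. The labels share only a number: after group and set means were removed, arrays of 1 label correlated from -0.078 to 0.063. A random block for arrays of one group and set gave 5, 0, 4 and 2. Set b alone gave 2 for indomethacin, 10 and 2 for its pairs with NS-398 and SC-560 and a median of 0.056 for NS-398; the set without the suffix gave 5 for NS-398, all lower, 5 against SC-560 and a median of -0.072. Leaving out 1 array gave 0 to 2 calls for indomethacin, 5 to 12 for NS-398, 4 to 8 between NS-398 and SC-560, 0 to 6 between indomethacin and NS-398, 0 to 1 between indomethacin and SC-560 and 0 to 5 for the interaction. Of 259 such counts and medians recomputed, 203 stayed within 1.5 times or 1 SD of the value reported, and of 656 recomputed changes of single genes 439 kept their side of the threshold and none changed direction. Pseudocount 16, the probe set of lowest spread and updated symbols moved none of the counts by over 1.5 times. With 2 indomethacin arrays, both in set b, an effect of that drug on the other set was not measured; dim members such as Cox7a1 have the widest intervals.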
